A study of Homo sapiens with 4 samples.

Results

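Blood lineage genes were examined in endothelial cells sorted for a GATA2/eGFP reporter, as 58 genes out of 19912 in the count table. The genes were taken by symbol from a list of 14 blood transcription factors, 8 erythroid genes, 10 megakaryocyte and platelet genes, 19 leukocyte genes and 7 myeloid genes, and each matched a single Ensembl identifier. The cells were differentiated from H1, a human embryonic stem cell line, and were either wild type (WT, 2 libraries) or GFI1 knockout (GFI1-KO, 2 libraries). Both genotypes carried the reporter and both were collected as GATA2/eGFP-positive endothelium. The labels name neither the clone nor the altered part of GFI1, and nothing in them ties the replicates to different cultures. The tests therefore see the spread of these 4 libraries, which may be technical. The knockout columns are headed GFI1 in the count table and were matched to the sample titles that read GFI1KO.

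Hemogenic endothelium is the endothelium from which blood cells emerge in the embryo, in a step called the endothelial-to-haematopoietic transition. GFI1 and its paralog GFI1B are repressors that act in this step, and GATA2 marks endothelium with blood potential. Lineage genes such as the erythroid factor KLF1, the platelet integrin ITGA2B or the leukocyte phosphatase PTPRC (CD45) come on at different points along the way to blood. In bulk RNA, fewer cells of a type and less RNA per cell cannot be told apart.

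Depth differed strongly between libraries. WT replicates 1 and 2 held 2239214 and 2417410 counts and GFI1-KO replicate 2 held 2332621, whereas GFI1-KO replicate 1 held 146584. The floor of detection used here, 3 counts, equals 19.9 CPM (counts scaled to a common library size, after TMM adjustment) in GFI1-KO replicate 1 and 1.26 to 1.34 CPM in the other libraries. GFI1 was at 58.5 and 58.3 CPM in WT against 19.9 and 19.6 CPM in GFI1-KO (log2 fold change -1.57, SE 0.31, edgeR adjusted p = 0.0215), so its RNA was reduced but present in both libraries labelled GFI1-KO. GATA2 was at 293 and 252 CPM in WT against 139 and 124 CPM in GFI1-KO (-1.09, adjusted p = 0.0376). The endothelial markers KDR, CDH5 and PECAM1 were present in every library, KDR at 2995 to 4970 CPM. A list of 15 pan-endothelial genes summed to 7338 and 7386 CPM in WT against 8757 and 10330 CPM in GFI1-KO. KDR held 42.7% of the WT counts of that list. All 15 were tested and 1 was called higher, EMCN (log2 fold change 2.38, edgeR adjusted p = 0.00959). Over all tested genes, 0.773% were called higher. Both knockout values lay above both WT values for 10 of the 15, where all tested genes gave 18.6%. They lay below for 1, PECAM1, where all gave 22.7%. The 7 pluripotent genes, mostly LIN28A and with NANOG and PRDM14 at 0 counts, summed to 747 and 779 CPM in WT against 603 and 569 CPM in GFI1-KO. All 3 of them that were tested had both knockout values below both WT values, where all tested genes gave 22.7%. Of the 3, 0 were called at an edgeR adjusted p under 0.05, where 0.958% of all tested genes were. The 10 mesenchymal and mural genes summed to 1703 and 1072 CPM in WT against 1086 and 1268 CPM in GFI1-KO, and the 8 cardiac and epithelial genes to 738 and 507 CPM against 291 and 627 CPM, with 0 called in either list. The part of these lists in the results on blood genes was not tested.

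Promoter sequence is shown for the 3 members with the smallest unadjusted p whose window could be printed, so that a reader can see the start regions of the genes that differ most by that test. Each is the stretch before the RefSeq start site (GRCh38.p14), written 5′ to 3′ on the strand of the gene, ended before the first exon base of GENCODE. KLF1 lies on the minus strand at chr19:12887202-12887451, CD33 on the plus strand at chr19:51224830-51225063 and ITGA2B on the minus strand at chr17:44389650-44389899. The RefSeq start of ITGA2B, 44389649, lies upstream of its GENCODE 5′ end, 44389505. The bases between them were neither printed nor searched. Capitals mark GATAA, a form of the site bound by GATA factors, read on either strand. Forms of that site with another base after GATA were neither marked nor counted.
KLF1: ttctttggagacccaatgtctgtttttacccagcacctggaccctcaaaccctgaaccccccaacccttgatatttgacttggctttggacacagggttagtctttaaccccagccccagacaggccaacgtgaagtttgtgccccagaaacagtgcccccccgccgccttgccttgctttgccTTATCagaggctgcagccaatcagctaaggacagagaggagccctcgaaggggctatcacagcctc
CD33: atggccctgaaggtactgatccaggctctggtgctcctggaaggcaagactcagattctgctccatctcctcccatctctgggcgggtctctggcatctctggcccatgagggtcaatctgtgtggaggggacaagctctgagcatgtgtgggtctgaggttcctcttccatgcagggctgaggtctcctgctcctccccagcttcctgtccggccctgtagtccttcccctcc
ITGA2B: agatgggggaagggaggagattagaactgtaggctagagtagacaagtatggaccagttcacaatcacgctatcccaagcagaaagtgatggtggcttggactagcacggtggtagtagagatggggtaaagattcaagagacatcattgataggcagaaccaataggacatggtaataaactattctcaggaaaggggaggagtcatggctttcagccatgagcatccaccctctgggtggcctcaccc
The KLF1 window held 1 match to GATAA, on the opposite strand and starting 62 bases before the start site, and the CD33 and ITGA2B windows held 0. The motif AGATAA, for GATA factors, overlaps the shorter one and had 0 matches in the 3 windows. The motif AAATCA, searched for GFI1, and the motif TGTGGT, searched for RUNX factors, also had 0 matches on either strand. The shorter GATA motif was added after these gave none and after the sequences were seen. Shorter forms of the GFI1 and RUNX sites were not searched. Of 35116 RefSeq promoters, 20.4% held GATAA in the same 250 bases. The share was 9.17% for AGATAA. It was 11.6% for AAATCA. It was 11% for TGTGGT. These matches of letters are a description of the sequence only.

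Most blood lineage genes were detected at low levels in the endothelium, and a small number at high levels. At least 1 count was found for 45 of 58 members in WT replicate 1, 47 in WT replicate 2, 23 in GFI1-KO replicate 1 and 40 in GFI1-KO replicate 2. Sampling the deeper libraries to 146584 counts would leave 27.5 and 28.7 members detected in WT and 22.9 in GFI1-KO replicate 2, by the hypergeometric formula. The 23 of GFI1-KO replicate 1 is thus near what GFI1-KO replicate 2 gives at that depth. There were 7 members with 0 counts in all 4 libraries, namely IKZF3, CEBPE, IRF8, EPB42, AHSP, GP1BB and PTPRC. A count of 0 allows up to 1.34 CPM in the least deep of the other libraries and 19.9 CPM in GFI1-KO replicate 1. GP1BB shares all its exons with the counted readthrough gene SEPT5-GP1BB, and how shared reads were assigned is not known here. The intervals and the floor describe counting error alone, and the sources used here mention no molecular identifiers.

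**Figure D1:**
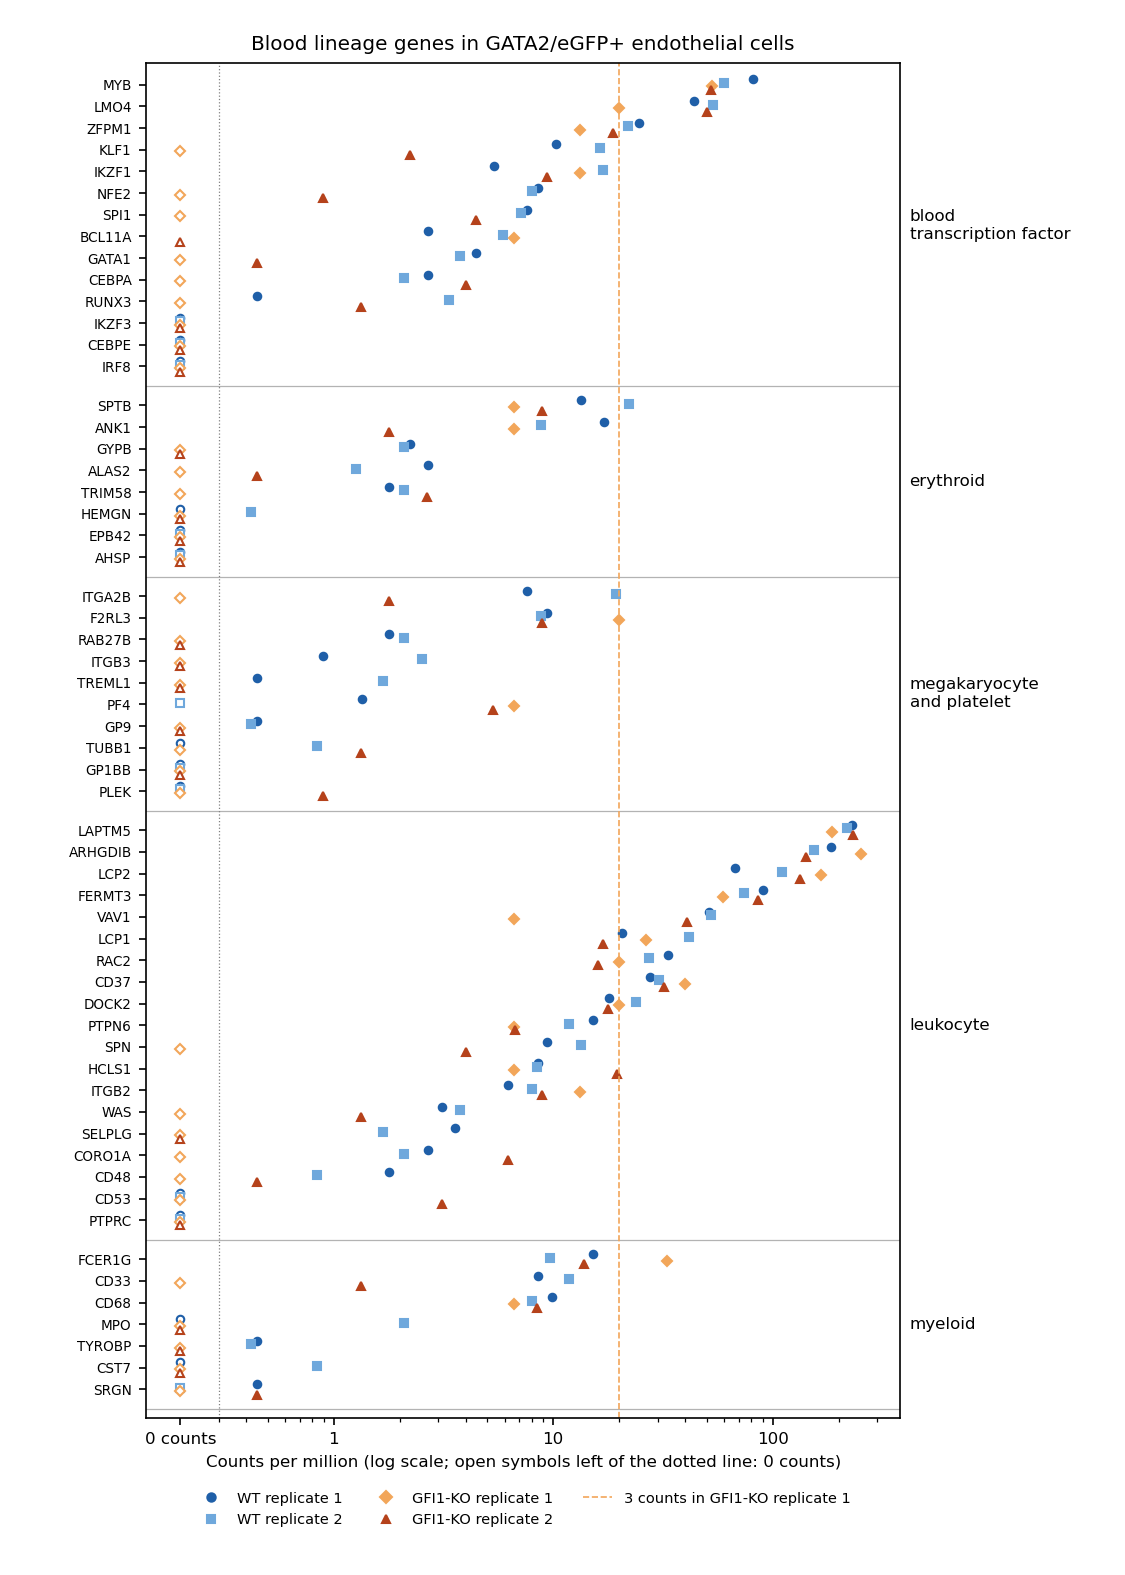
Level of each of the 58 blood lineage genes in CPM (log scale), with 1 symbol per library and open symbols at the left for 0 counts; the dashed vertical line is 3 counts in GFI1-KO replicate 1 (19.9 CPM). LAPTM5, ARHGDIB, LCP2 and MYB lie at the right in all libraries, while KLF1, NFE2, ITGA2B and CD33 lie further left in GFI1-KO replicate 2 than in WT.

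Per length, the order of the members in WT was led by leukocyte genes. ARHGDIB was at 80.5 ± 9.94 CPM per kilobase of merged exons (SD, n = 2), the 97.4th percentile of genes with a count. LAPTM5, a lysosomal membrane protein gene of blood cells, was at 68.3 ± 2.81 CPM per kilobase, and FERMT3, the kindlin-3 gene that serves integrin activation, at 26.8 ± 3.67 CPM per kilobase. The WT values of these 3 genes did not overlap. Next came FCER1G, MYB, LCP2, VAV1 and RAC2 at 12.9, 12.9, 12.2, 12.1 and 12.0 CPM per kilobase, whose WT ranges overlapped from each to the next. KLF1 was at 8.27 ± 2.68 CPM per kilobase and ITGA2B at 2.42 ± 1.49 CPM per kilobase.

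The 29 members that passed the low-count filter held 0 calls for GFI1-KO against WT at a Benjamini-Hochberg adjusted p under 0.05 with edgeR's quasi-likelihood test, where 0.958% of all 11380 tested genes were called (0.185% lower, 0.773% higher). The limma-voom fit also called 0 members. DESeq2 gave an adjusted p for 13 members and called 0 of those, but it gave none for KLF1, NFE2, ANK1, ITGA2B or CD33, so it has no call to set beside theirs. Without the low-count filter, edgeR called 4 of 51 members, all lower (KLF1, ANK1, ITGA2B and CD33). That fit called 1.96% of all 15579 genes in either direction, 89 lower and 216 higher. In the main edgeR fit, with the filter, the smallest adjusted p of a member was 0.079, for KLF1. At an unadjusted p under 0.05, 9 members were lower and 3 higher, against 3.54% and 5.81% of all tested genes. Both GFI1-KO libraries lay below both WT libraries for 13 of the 29, where all tested genes gave 22.7%, and above them for 4, where all gave 18.6%. Of the 13, 6 had 0 counts in GFI1-KO replicate 1 and 10 had at most 1. The median log2 fold change of the 29 was -0.37, beside -0.02 over all tested genes, and 21 of 29 values were below 0, beside 52.5%. The filter passes a gene partly by its level in either genotype, so the 29 do not stand for all 58. KLF1, NFE2, ITGA2B, CD33, SPN and SPI1 passed through their WT values, and PF4 through its GFI1-KO values. Those members enter the median and the shares by that route. All tested genes were not matched to the members in level.

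**Figure D2:**
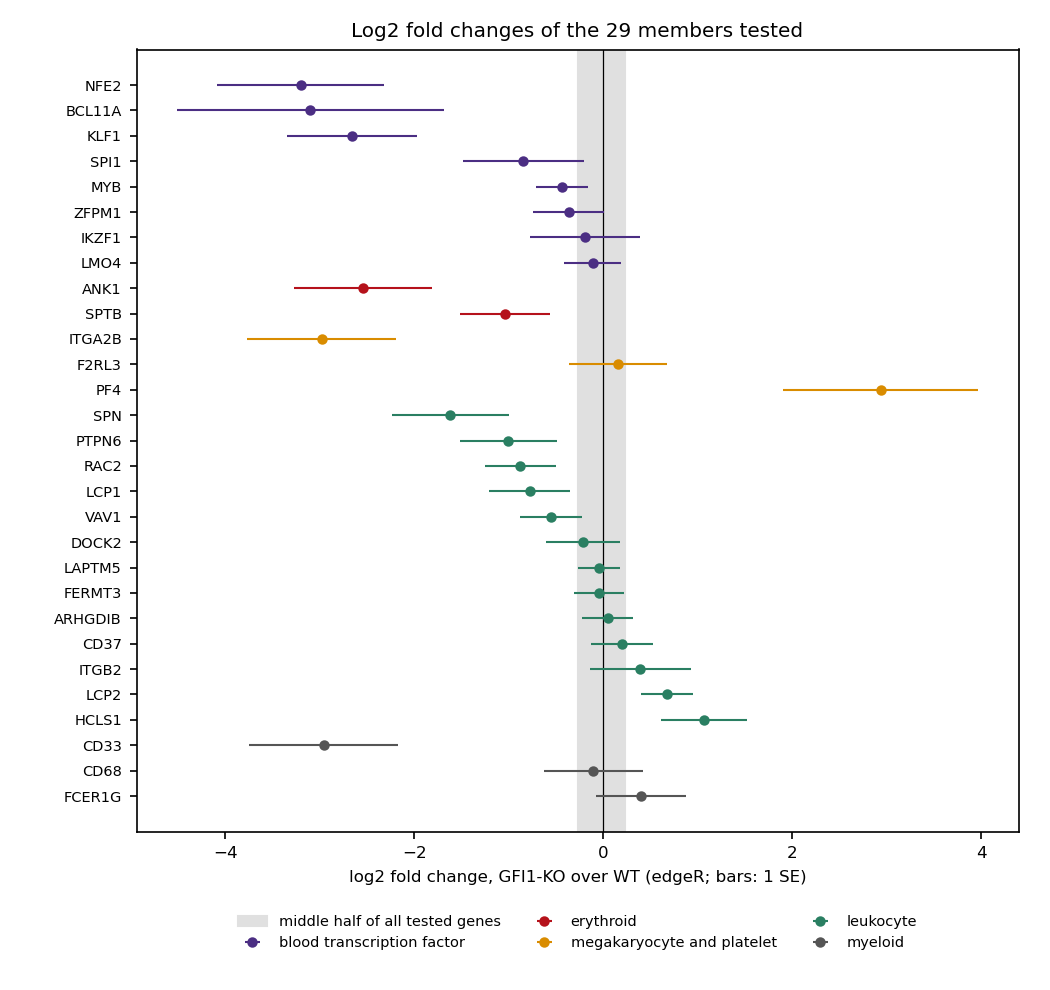
Log2 fold change of GFI1-KO over WT for the 29 tested members (points, edgeR) with 1 standard error (bars), ordered by class; the grey band runs from the lower to the upper quartile of all tested genes (-0.26 to 0.23). NFE2, BCL11A, KLF1, ITGA2B, CD33 and ANK1 lie between -3.20 and -2.54, PF4 lies at 2.94, and LAPTM5, ARHGDIB and FERMT3 lie inside the band.

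Among the 14 blood transcription factors, NFE2, BCL11A and KLF1 had log2 fold changes of -2.66 or lower, none of them called, and the other 5 tested had smaller ones. KLF1 (ENSG00000105610), the erythroid Krüppel-like factor whose upstream sequence is given above, was at 10.3 and 16.4 CPM in WT against 0 and 2.23 CPM in GFI1-KO. Those values rest on 23 and 39 counts in WT against 0 and 5 in GFI1-KO, where the pooled WT level would give 2.03 and 30.1 counts. Both GFI1-KO values lay below both WT values, and the 0 in GFI1-KO replicate 1 falls where few counts would be expected. The log2 fold change was -2.66 (SE 0.69, edgeR adjusted p = 0.079), and pooled counts gave a ratio of 0.156, its exact 95% interval running from 0.0488 to 0.383. NFE2 (ENSG00000123405; chromosome 12, 54292111 to 54301121), a factor of megakaryocyte and erythroid genes, had 19 and 19 counts in WT against 0 and 2 in GFI1-KO, or 8.48 and 7.97 against 0 and 0.890 CPM. Its log2 fold change was -3.20 (SE 0.88, adjusted p = 0.0987).

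GATA1, the master regulator of erythroid and megakaryocyte genes, did not pass the filter. It had 10 and 9 counts in WT against 0 and 1 in GFI1-KO, where 9.23 counts would be expected in GFI1-KO replicate 2 at the WT level, and its pooled ratio was 0.101 (0.00244 to 0.638). ZFPM1, the GATA1 cofactor FOG1, had a smaller difference, with 24.6 and 21.8 CPM in WT against 13.2 and 18.7 CPM in GFI1-KO (log2 fold change -0.36, adjusted p = 0.887). BCL11A, a repressor of fetal globin genes, had 6 and 14 counts in WT against 1 and 0 in GFI1-KO (-3.10, SE 1.41, adjusted p = 0.445). At 6.62 CPM, its single count in GFI1-KO replicate 1 put that library above both WT libraries, so the groups overlap.

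MYB, required for definitive haematopoiesis, was the most abundant of these factors per length. It was at 81.3 and 60.0 CPM in WT against 53.0 and 52.1 CPM in GFI1-KO, so both knockout values lay below both WT values, by less than the WT replicates differ. Its log2 fold change was -0.43 (SE 0.28, adjusted p = 0.74). SPI1, the PU.1 factor of myeloid and lymphoid cells, had 17 and 17 counts in WT against 0 and 10 in GFI1-KO (-0.84, SE 0.64, adjusted p = 0.81). IKZF1, the lymphoid factor Ikaros, differed more between the WT libraries (5.36 and 16.8 CPM) than between genotypes (13.2 and 9.35 CPM in GFI1-KO). LMO4, a LIM-domain cofactor, was at 43.8 and 53.7 CPM in WT against 19.9 and 50.3 CPM in GFI1-KO, so the groups overlap, and the lowest value rests on 3 counts. RUNX3 had 1, 8, 0 and 3 counts and CEBPA, a myeloid factor, 6, 5, 0 and 9, in the order WT 1, WT 2, GFI1-KO 1 and GFI1-KO 2. Summed over the 14 genes, the class was at 192 and 199 CPM in WT against 106 and 144 CPM in GFI1-KO, with no overlap of the exact intervals of GFI1-KO replicate 2 (129 to 160) and the WT libraries (174 to 211 and 181 to 218). In GFI1-KO replicate 1 that interval was 60.6 to 172.

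The listed erythroid genes were scarce in WT endothelium, with lower sums in the knockout libraries. The 8 genes summed to 37.1 and 36.9 CPM in WT against 13.2 and 13.8 CPM in GFI1-KO, on 83, 88, 2 and 31 counts. Both knockout sums lay below both WT sums, but the interval of GFI1-KO replicate 1 (1.60 to 47.9 CPM) covers the WT values and that of GFI1-KO replicate 2 (9.38 to 19.6 CPM) does not reach their intervals. ANK1 (ENSG00000029534), which encodes the ankyrin that ties the red cell membrane to its skeleton, was at 17.0 and 8.81 CPM in WT against 6.62 and 1.78 CPM in GFI1-KO. The log2 fold change was -2.54 (SE 0.73, adjusted p = 0.127), and GFI1-KO replicate 2 had 4 counts where 28.7 would be expected at the WT level. SPTB, the beta-spectrin gene of the same skeleton, was at 13.4 and 22.2 CPM in WT against 6.62 and 8.90 CPM in GFI1-KO (log2 fold change -1.04, SE 0.48, adjusted p = 0.51). SPTB shares exons with PLEKHG3 on the opposite strand, and the strand setting of the counting is not given in the sources used here. These 2 genes were the only erythroid members tested. Each had 1 count in GFI1-KO replicate 1.

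The late erythroid genes were at or near 0 in both genotypes. AHSP, the alpha-haemoglobin chaperone gene, and EPB42, a membrane skeleton gene, had 0 counts throughout, and HEMGN had 1 count in WT replicate 2. ALAS2, the erythroid enzyme of haem synthesis, had 6 and 3 counts in WT against 0 and 1 in GFI1-KO. GYPB, a glycophorin gene with near-identical relatives that may share its reads, had 5 and 5 against 0 and 0, and the exact 95% interval of its pooled ratio reaches up to 0.86. TRIM58, a ubiquitin ligase gene of maturing red cells, had 4 and 5 against 0 and 6, so those groups overlap.

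Megakaryocyte and platelet genes did not share a direction. ITGA2B (ENSG00000005961), the CD41 integrin chain that appears on the earliest blood cells as well as on platelets, had 17 and 46 counts in WT against 0 and 4 in GFI1-KO. On the CPM scale it was at 7.59 and 19.3 in WT, a 2.54-fold gap between replicates, and at 0 and 1.78 in GFI1-KO. Both knockout values lay below both WT values. Its log2 fold change was -2.98 (SE 0.79, adjusted p = 0.0893), with a pooled ratio of 0.122 (0.0324 to 0.329). Its partner chain ITGB3 had 2 and 6 counts in WT against 0 and 0 in GFI1-KO. ITGB3 shares exons with a counted neighbouring gene.

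PF4, a platelet chemokine gene, had the opposite direction, with 3 and 0 counts in WT against 1 and 12 in GFI1-KO. It was at 1.34 and 0 CPM in WT against 6.62 and 5.34 CPM in GFI1-KO, so both knockout values were higher. The log2 fold change of 2.94 (SE 1.03, adjusted p = 0.235) rests on 16 counts in all. F2RL3, the thrombin receptor PAR4, was at 9.38 and 8.81 CPM in WT against 19.9 and 8.90 CPM in GFI1-KO, the first of the knockout values on 3 counts, with a log2 fold change of 0.16 (SE 0.52). RAB27B, a granule secretion gene, had 4 and 5 counts in WT and 0 in GFI1-KO, and TREML1 had 1 and 4 against 0 and 0. GP9 had 1 count in each WT library, TUBB1, a platelet tubulin that shares exons with ATP5F1E, had 0, 2, 0 and 3, and PLEK had 2 counts in GFI1-KO replicate 2 alone. The class summed to 21.9 and 35.7 CPM in WT against 26.5 and 18.2 CPM in GFI1-KO, and these values overlap.

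**Figure D3:**
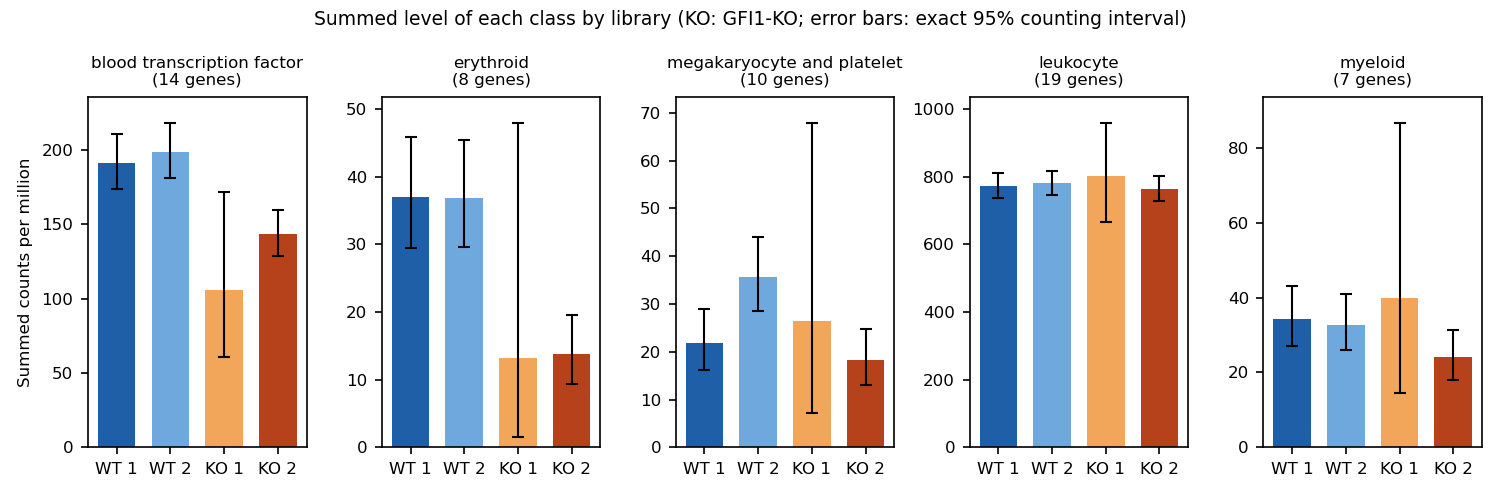
Summed CPM of each class in each library (bars, axis from 0) with exact 95% counting intervals. The erythroid and blood transcription factor bars are lower in both GFI1-KO libraries, the leukocyte bars lie at 764 to 801 CPM in all 4 libraries, and the intervals of GFI1-KO replicate 1 are wide.

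Leukocyte genes made up most of the counts of the list and their sums differed by less than the spread between libraries. The 19 genes summed to 773 and 781 CPM in WT against 801 and 764 CPM in GFI1-KO, a ratio of means of 1.01 (propagated SD 0.0347). Without LAPTM5, ARHGDIB and LCP2 the sums were 292 and 300 CPM in WT against 199 and 259 CPM in GFI1-KO, a ratio of 0.774. PTPRC, the defining pan-leukocyte gene, had 0 counts in every library, and SPN, SELPLG, CD48 and CD53 were low. The sum comes mostly from signalling and cytoskeletal genes of blood cells, with LAPTM5, ARHGDIB and LCP2 holding 61.9% of its WT counts. LAPTM5 was at 230.0 and 217 CPM in WT against 185 and 231 CPM in GFI1-KO, with overlap and a log2 fold change of -0.05 (SE 0.22). ARHGDIB was at 184 and 154 CPM in WT against 252 and 142 CPM in GFI1-KO, so the knockout values bracket those of WT (0.05, SE 0.27). FERMT3 was at 90.2 and 74.3 CPM in WT against 59.6 and 85.5 CPM in GFI1-KO (log2 fold change -0.04, SE 0.26).

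Within this class 2 adaptor genes had higher fitted values in the knockout. LCP2, the SLP-76 adaptor of immune receptor and platelet signalling, was at 67.4 and 110 CPM in WT against 166 and 133 CPM in GFI1-KO. Both knockout values were higher than both WT values, by less than the WT gap in GFI1-KO replicate 2, and the log2 fold change was 0.68 (SE 0.28, adjusted p = 0.402). It ran from 0.40 without WT replicate 1 to 1.11 without WT replicate 2. HCLS1, a cortactin-like adaptor gene, was at 8.48 and 8.39 CPM in WT against 6.62 and 19.6 CPM in GFI1-KO. Its log2 fold change of 1.07 (SE 0.46, adjusted p = 0.436) rests on GFI1-KO replicate 2, the groups overlap, and without that library it was -0.34. CD37, a tetraspanin gene that shares exons with TEAD2, was at 27.7 and 30.2 CPM in WT against 39.8 and 32.0 CPM in GFI1-KO. ITGB2, the common chain of leukocyte integrins, was at 6.25 and 7.97 CPM in WT against 13.2 and 8.90 CPM in GFI1-KO. For both genes the knockout values lay above both WT values, with adjusted p of 0.946 and 0.93. The values of GFI1-KO replicate 1 rest on 6 counts for CD37 and 2 for ITGB2.

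Other leukocyte genes had negative values. SPN, the CD43 sialomucin of leukocytes, had 21 and 32 counts in WT against 0 and 9 in GFI1-KO (log2 fold change -1.62, SE 0.62, adjusted p = 0.329). RAC2, the haematopoietic Rac GTPase, was at 33.5 and 27.3 CPM in WT against 19.9 and 16.02 CPM in GFI1-KO (log2 fold change -0.88, SE 0.38, adjusted p = 0.444). PTPN6, the SHP-1 phosphatase, was at 15.2 and 11.8 CPM against 6.62 and 6.68 CPM (-1.0, SE 0.51, adjusted p = 0.588). VAV1, a guanine nucleotide exchange factor of blood cells, was even in WT at 51.4 and 52.5 CPM and was at 6.62 and 40.5 CPM in GFI1-KO. In these 4 genes both knockout values lay below both WT values. The values of GFI1-KO replicate 1 rest on 0 counts for SPN, 3 for RAC2 and 1 each for PTPN6 and VAV1. LCP1, the L-plastin gene, was at 20.5 and 41.5 CPM in WT against 26.5 and 16.9 CPM in GFI1-KO, and DOCK2, a Rac activator of leukocyte migration, at 17.9 and 23.9 against 19.9 and 17.8 CPM, with overlap in both cases. Leaving out 1 library at a time moved the log2 fold change of LCP1 between -1.16 and -0.11, and that of VAV1 between -2.95 and -0.36.

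The leukocyte genes outside the fit rest on few counts. CD53, a leukocyte tetraspanin, had 7 counts in GFI1-KO replicate 2 and 0 in the other 3 libraries, and the exact 95% interval of its pooled ratio begins at 2.78. CORO1A, an actin regulator of leukocytes, had 6, 5, 0 and 14 counts in the order used above. WAS, the Wiskott-Aldrich protein gene, had 7 and 9 counts in WT against 0 and 3 in GFI1-KO. SELPLG, the P-selectin ligand, had 8 and 4 against 0 and 0, with a pooled ratio of at most 0.694 by its interval, and CD48 had 4 and 2 against 0 and 1.

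Myeloid genes were few, with 1 large difference. CD33 (ENSG00000105383), a sialic acid-binding receptor of myeloid progenitors, was at 8.48 and 11.8 CPM in WT against 0 and 1.34 CPM in GFI1-KO. GFI1-KO replicate 2 had 3 counts where 22.8 would be expected at the WT level, and GFI1-KO replicate 1 had 0 where 1.53 would be. The log2 fold change was -2.96 (SE 0.79, adjusted p = 0.0873), with a pooled ratio of 0.123 (0.0245 to 0.382). FCER1G, the shared Fc receptor gamma chain, was at 15.2 and 9.65 CPM in WT against 33.1 and 13.8 CPM in GFI1-KO (log2 fold change 0.40, SE 0.48). CD68, a lysosomal gene of macrophages that shares exons with an annotated readthrough not in the count table, was at 9.82 and 7.97 CPM against 6.62 and 8.46 CPM (-0.10, SE 0.52). Both had groups that overlap, with 5 counts for FCER1G and 1 for CD68 in GFI1-KO replicate 1. The granule and effector genes were close to 0, MPO with 5 counts in WT replicate 2, TYROBP with 1 in each WT library, CST7 with 2 in WT replicate 2 and SRGN with 1 in WT replicate 1 and 1 in GFI1-KO replicate 2.

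**Figure D4:**
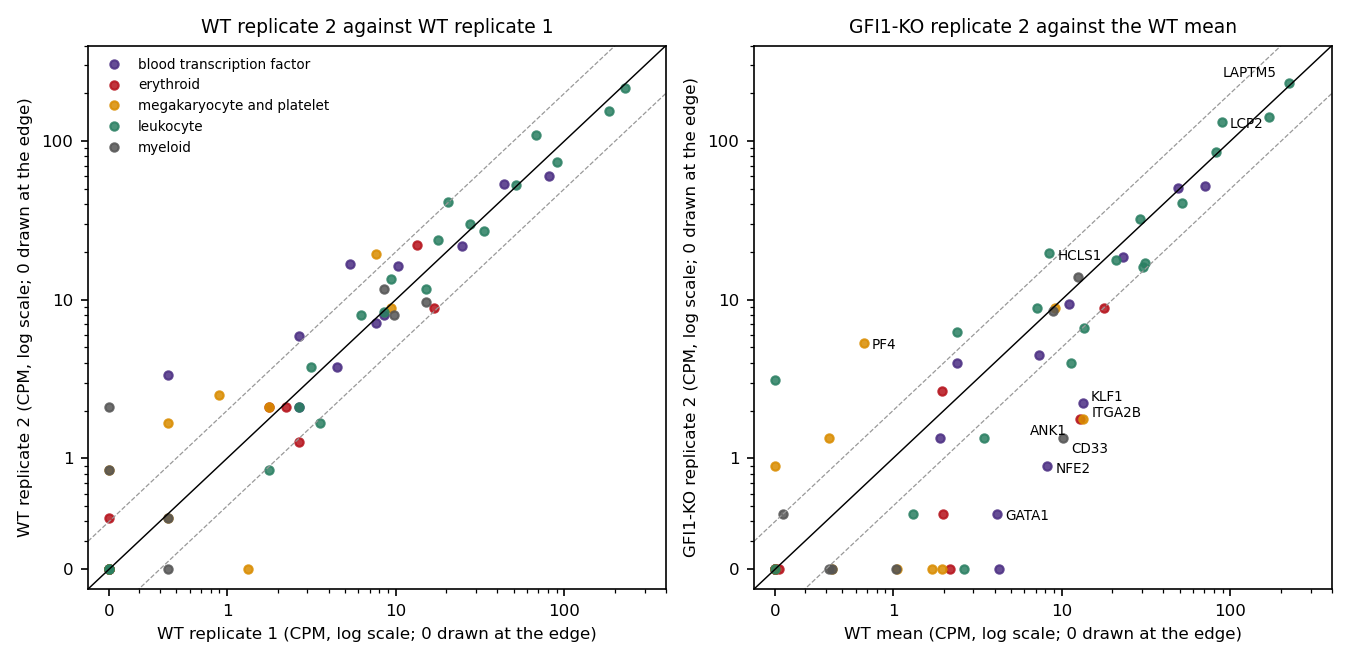
CPM of the 58 members in the 3 deep libraries (log scales, 0 drawn at the edge), WT replicate 2 against WT replicate 1 at left and GFI1-KO replicate 2 against the WT mean at right; the solid line is equality and the dashed lines a 2-fold difference. Of the labelled members, KLF1, ITGA2B, ANK1, CD33, NFE2 and GATA1 lie below the lower dashed line at right, and PF4 and HCLS1 above the upper one. Other members beyond these lines, on both sides, are not labelled.

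The shallow library carries little information on most members. At the pooled WT level, 17 of the 29 tested members would have under 3 counts in that library. When GFI1-KO replicate 1 was left out, leaving a single knockout library whose variation is assumed to be that of the WT pair, 5 members were called, all lower: KLF1 (log2 fold change -2.56, edgeR adjusted p = 0.00919), NFE2 (-3.13, 0.0449), ANK1 (-2.81, 0.00612), ITGA2B (-2.89, 0.00339) and CD33 (-2.88, 0.0231). That fit called 3.18% of all genes it tested. In the fit without GFI1-KO replicate 2, where the shallow library stands alone, none of the 5 was called and all 5 fitted values were below 0. There KLF1, NFE2, ITGA2B and CD33 had 0 knockout counts, so the size of their fitted values depends on the prior count, and ANK1 was at -0.94 on 1 count.

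Of the 29 members outside the fit, 22 had a count somewhere. Counts in both WT libraries with 0 in both GFI1-KO libraries were found for 7 of the 22 (GYPB, ITGB3, GP9, TREML1, RAB27B, SELPLG and TYROBP), a pattern of 7.14% of all 4199 genes with a count outside the fit. The reverse, 0 in both WT libraries and a count in GFI1-KO, was found for 2 (CD53 and PLEK), beside 11.6%. The levels of those 4199 genes were not matched to the members. All 29 members outside the fit had 0 counts in GFI1-KO replicate 1, where 1 count already equals 6.62 CPM and helps a gene to pass the filter. Their summed counts were 67 and 82 in WT and 51 in GFI1-KO replicate 2.

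Other blood genes were read from a separate list of 40. Of these, 11 were tested and 0 were called, where 0.958% of all tested genes were. Of the 11 values, 9 were below 0, beside 52.5% of all tested genes. The median log2 fold change was -0.34, beside -0.02. Both knockout values lay below both WT values for 6 of the 11, where all tested genes gave 22.7%. They lay above for 0, where all gave 18.6%. Here too, all tested genes were not matched in level. RHAG, the Rh-associated glycoprotein of red cell membranes, was at 49.1 and 78.0 CPM in WT against 13.2 and 35.6 CPM in GFI1-KO (log2 fold change -0.97, SE 0.33, edgeR adjusted p = 0.236). GP1BA, the platelet receptor for von Willebrand factor, was at 23.2 and 18.5 CPM against 13.2 and 6.23 CPM (-1.59, SE 0.48, adjusted p = 0.169). The erythropoietin receptor gene EPOR was at 34.8 and 29.8 CPM in WT against 39.8 and 32.5 CPM in GFI1-KO (log2 fold change 0.06, SE 0.32). EPB41 held 42.2% of the WT counts of these 40 genes. It was at 276 and 253 CPM in WT against 311 and 199 CPM in GFI1-KO (-0.16, SE 0.24). GYPC was at 119 and 117.5 CPM in WT against 113 and 119 CPM in GFI1-KO (-0.01, SE 0.24). The globin genes HBA1, HBA2, HBB, HBG1, HBG2, HBE1 and HBZ, and the band 3 gene SLC4A1, had 0 counts in all libraries, as did the lymphoid gene CD3E. HBA1 and HBA2, and HBG1 and HBG2, are near-identical pairs, and HBG1, HBG2, HBE1 and HBZ share exons with other counted genes, so their 0 is uncertain.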

How the data were processed

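The authors deposited a table of unnormalized gene counts for 4 RNA-seq libraries. HISAT2 2.0.4, SAMtools 1.3.1, HTSeq 0.6.0, DESeq 1.18.1 and the builds hg38 and GRCh38 are named, per the submitters' processing notes. The annotation, read filters and strand setting were not given in the sources used here. Symbols, coordinates and merged exon lengths came from GENCODE release 29 (GRCh38), which matched 19902 of 19912 identifiers; RefSeq promoters (GRCh38.p14) matched 43 of 58 members. The main test was edgeR 4.0.16 in R 4.3.3 on the counts: TMM scaling, filterByExpr (minimum count 10, total 15), glmQLFit and glmQLFTest, with genotype as the only term and p-values adjusted over 11380 genes. Fold changes (log2, GFI1-KO against WT) used a prior count of 0.125. The scripts were tested on simulated data. CPM divides a count by the total over tested genes times the TMM factor. DESeq2 1.42.0, limma 3.58.1 (voom), and fits with other scalings or filters, with a replicate block or without a library were alternatives. Values in each library were given for members called, those with an unadjusted p under 0.05, the 3 highest per length in each class, those with at least 20 counts and groups that do not overlap, and any that a count of 5 or fewer rests on; others follow by class. The members and lists were chosen with earlier results of these data known.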

Additional observations from a re-analysis of the deposited data

How the results depend on the processing

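No member was called with edgeR at an adjusted p under 0.05, and this held under limma-voom, the newer quasi-likelihood dispersion, the 3 other scalings and the filter at a mean of 5 CPM. DESeq2 called 0 of the 13 members it gave an adjusted p, which leave out KLF1, NFE2, ANK1, ITGA2B and CD33. Without the low-count filter 4 of 51 members were called (KLF1, ANK1, ITGA2B and CD33), beside 1.96% of all 15579 genes (89 lower and 216 higher). All calls of members were lower, and 0 members were called higher under any alternative. When each library was left out in turn, the count of members called, all lower, ran from 0 to 5, the 5 without GFI1-KO replicate 1. The count over all genes was 109; it was 31 with DESeq2, 58 with the newer dispersion, 58 with upper-quartile scaling, 72 with library totals, 305 without the filter and 50 at a mean of 5 CPM, and 62 to 373 when a library was left out (62 without WT replicate 1, 274 without GFI1-KO replicate 2 and 373 without GFI1-KO replicate 1). With the replicate block, 3 members were called lower (KLF1, ITGA2B and CD33) and 327 genes in all (2.87%), 89 lower and 238 higher. Same-numbered libraries share only a number, and their deviations from the genotype means correlated at 0.1159 over 11380 genes, but with only 2 pairs and no label that ties them this is not used as pairing. With at least 3 counts as the limit, 12 members were detected in GFI1-KO replicate 1. The cause of these differences was not tested.

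Of 370 alternative fits of the 29 tested members, 342 kept direction and side of the threshold, 12 passed it and 16 changed sign. The sign changes were all in log2 fold changes near 0 or resting on few counts. With limma-voom IKZF1 was at 0.0719, ARHGDIB at -0.0843 and FERMT3 at 0.0047. When each library was left out in turn, values ran from -0.741 to 0.91 for IKZF1, -6.32 to 0.62 for BCL11A, -1.28 to 0.0436 for LMO4, -0.0303 to 1.13 for F2RL3, -0.26 to 0.0478 for LAPTM5, -0.26 to 0.583 for ARHGDIB, -0.34 to 1.21 for HCLS1, -0.454 to 0.0743 for FERMT3, -0.39 to 0.037 for DOCK2 and -0.41 to 0.0314 for CD68. Depth in GFI1-KO replicate 1 limits most members: 21 of the 29 had at most 3 counts there.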
